A study of Homo sapiens with 15 samples.

Results

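Antisense long noncoding RNAs (lncRNAs) were followed from cytosolic extract into pelleted condensates prepared from U2OS, an osteosarcoma line of human origin. A gene was taken as an antisense lncRNA if its symbol ended in -AS1, -AS2 or -AS3, did not start with LINC or SNHG, and was not EPB41L4A-AS1. Of the 57500 genes in the files, 1796 met this naming rule, and 490 of these reached 10 counts in 2 or more libraries of every one of the 5 conditions. The 490 antisense lncRNAs, 460 named -AS1, 25 named -AS2 and 5 named -AS3, are described here out of 16612 genes that passed the same filter. The rule used names and a minimum count, and no difference between groups.

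The study prepared cytosolic extracts of U2OS cells, which the labels give as wild type, while the text of the study speaks of YFP-G3BP1 condensates, and ran in vitro translation reactions in them for 2 h. Reactions contained 250 nM dsRNA, which activates the kinase PKR, 2 µg/ml silvestrol, an inhibitor of the helicase eIF4A in translation initiation, 1% PEG, a molecular crowder, or no addition (mock). After the reaction, condensates were pelleted, whereas input extract was not pelleted, and poly(A)-selected RNA was sequenced in 3 biological replicates per group, without a statement of whether each came from its own extract. Every difference from input therefore compares a washed pellet with whole extract, and the pelleting and the reaction cannot be told apart in it. PEG pellets and the dsRNA and silvestrol pellets were also compared with mock pellets, which went through the same steps. Total counts ranged from 15341973 to 46939993 per library, and were at most 25675182 with PEG. Counts on the 13 mitochondrially encoded mRNAs made up 0.363 to 0.465% of the input libraries, 0.945 to 1.42% of the mock, dsRNA and silvestrol libraries and 0.465 to 0.708% of the PEG libraries. The summed level of 3 nuclear-retained RNAs, MALAT1, NEAT1 and KCNQ1OT1, was 741 to 1082 CPM (counts-per-million) in input, 993 to 1756 in mock, 955 to 1816 with dsRNA, 921 to 1719 with silvestrol and 536 to 1081 with PEG. In PEG against input MALAT1 was higher (log2 fold change 1.43) and NEAT1 lower (-0.98). The part of either share in the results was not tested. In input, the osteoblast lineage markers RUNX2, SPARC, VIM and COL1A1 reached at least 50.1 CPM and ALPL 2.11 to 5.15 CPM, while the blood markers PTPRC and CD3E and the liver marker ALB stayed at or below 0.216 CPM. The epithelial markers EPCAM and KRT8 were present, EPCAM at 7.70 to 11.7 CPM and KRT8 at 476 to 592 CPM.

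Antisense lncRNAs are transcribed from the strand opposite to another gene, the sense gene, and their symbol is formed from it. Some start at a shared promoter and run away from the sense gene, others run across its exons or introns. Many stay in the nucleus near their gene, whereas others, such as OIP5-AS1, an RNA known to bind the protein HuR and the microRNA miR-7, are also found in the cytoplasm. Stress granules (SGs) and related condensates form from mRNA released from polysomes, and long RNAs that carry few ribosomes are known to be recruited well.

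As libraries were made from poly(A) RNA, the annotated 3′ ends of the members were searched for polyadenylation signals. The selection acts on the poly(A) tail and not on the signal. Whether the annotated end is the one expressed was not tested. In the last 50 bases of the longest GENCODE release 29 transcript, 280 of the 490 antisense lncRNAs (57.1%) held a polyadenylation signal, AATAAA or ATTAAA on the transcript strand, against 71.7% of 16529 tested genes with a transcript and 59.0% of 315 LINC genes. The following last 50 bases belong to members on which the results turn, and capitals mark the signal. OIP5-AS1 and FGD5-AS1, the members with high counts that fell with PEG, hold one, and BCAN-AS2, which also fell, has neither hexamer in this window.
OIP5-AS1: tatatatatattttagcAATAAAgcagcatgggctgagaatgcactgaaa
FGD5-AS1: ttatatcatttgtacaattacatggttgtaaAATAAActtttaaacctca
BCAN-AS2: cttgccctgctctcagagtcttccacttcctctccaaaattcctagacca
For PEG against mock, the median log2 fold change was 0.20 over the 280 members with a signal and 0.25 over the 210 without. For dsRNA against input it was -0.04 and -0.12, with 27 higher and 31 lower of the 280 and 31 higher and 15 lower of the 210. Of all genes tested, 21.1% were higher and 19.6% lower in that comparison. The difference between members with and without a signal was not tested.

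A count for an antisense lncRNA needs reads that are not shared with its sense gene, and the strand setting of the counting is not given in the sources used here. The files answered this in part. Of 511 genes of at least 200 nt whose exons lay wholly under exons of the opposite strand, 508 (99.4%) had no count in any of the 15 libraries, against 24.6% of 38844 genes with no opposite-strand exon. For genes of the antisense naming rule, the same held for 28 of 28 against 91 of 666 (13.7%). Counts of a member thus come from the parts of its exons that lie outside opposite-strand exons, and there, reads of the antisense RNA and of unspliced or extended sense RNA cannot be told apart. Exons of 384 members lay in part under opposite-strand exons, with more than 50% of the exon length in 32 members, and these members are undercounted. By position, exons of 350 members overlapped those of the sense gene, 92 members overlapped its span with exons apart, and 30 lay apart with starts within 2 kb. A further 8 lay apart otherwise, 2 lay on the same strand as the gene of that symbol, and 8 HOX members have no single sense gene. The sense gene passed the filter for 438 members, which share 432 sense genes.

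Antisense lncRNAs were short and weakly expressed. Their summed exon length had a median of 2.22 kb, against 4.43 kb for all genes tested, with a median of 4 exon blocks against 9, and their GC content was similar (medians 49.9% and 48.8%). Their mean count per library had a median of 90.8, against 709 for all genes tested. Per length, the median level over all libraries was 1.34 RPKM (CPM per kilobase of summed exon length, TMM-scaled), against 4.36 RPKM for all genes tested. Only 23 members reached 10 RPKM. In input, 107 of 438 members had a higher RPKM level than their sense gene, and the median ratio of antisense to sense level was 0.272. The length used includes stretches under opposite-strand exons, which took almost no counts in the check above. Such stretches made up a median of 10.5% of exon length in members and 0% in all genes tested. Levels per length are thus lowered by unequal amounts, and were not corrected for this. Together the 490 members took 0.348% ± 0.0203 of the counts in input (SD, n = 3), 0.367% ± 0.0145 in mock, 0.36% ± 0.0163 with dsRNA, 0.365% ± 0.0132 with silvestrol and 0.287% ± 0.00517 with PEG. The PEG libraries thus had the lowest share, between 0.282 and 0.292%, outside the range of the other 12 libraries (0.325 to 0.379%).

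The 6 members with the highest mean level per length over the 15 libraries are given by their group levels. PRR11-AS1 stood highest, at 122 ± 3.46 RPKM in input, 140 ± 16.2 in mock, 85.8 ± 11.7 with dsRNA, 146 ± 11.3 with silvestrol and 45.7 ± 13.9 with PEG (SD, n = 3). Its exon of 97 nt lies wholly under exons of PRR11, its sense gene, but is part of the length used. Its reads cannot be told apart from those of PRR11 transcripts that run on, as described below. In input the other 5 were TMEM132D-AS1 (44.1 ± 8.78 RPKM), FGD5-AS1 (38.8 ± 3.04), SERTAD4-AS1 (33.5 ± 2.32), FAM131B-AS2 (21.7 ± 1.36) and ARRDC1-AS1 (20.7 ± 1.45). OIP5-AS1, at 24.1 ± 2.11 RPKM in input, and KMT2E-AS1, at 21.4 ± 2.89, lay among them there but had lower means over all libraries. The input levels of TMEM132D-AS1 and FGD5-AS1 differed by less than the SD of the former, as did those of FAM131B-AS2 and ARRDC1-AS1. With PEG the order was another one: TMEM132D-AS1 reached 96.4 ± 15.7 RPKM and SERTAD4-AS1 61.6 ± 6.78, whereas FGD5-AS1 was at 16.6 ± 0.228. OIP5-AS1 gave the highest count of all members, 6.62% of the summed level of members in CPM, and the 5 highest members gave 19.7%.

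The first question was which antisense lncRNAs were enriched or depleted in pellets relative to input. In the mock, dsRNA and silvestrol pellets the share of members called was below that of all genes at the threshold used throughout, a difference that was not tested (edgeR quasi-likelihood test, Benjamini-Hochberg adjusted p under 0.05 over all 16612 genes). In mock against input, 46 members were higher and 32 lower (9.39 and 6.53%), while 17.6% of all genes tested were higher and 15.8% lower. With dsRNA, 58 were higher and 46 lower (11.8 and 9.39%, background 21.1 and 19.6%). With silvestrol, 46 were higher and 42 lower (9.39 and 8.57%, background 19.4 and 18.1%). Called members were mostly those with more counts: of the 245 members at or above the median member count, 35 were higher and 22 lower in mock, against 11 and 10 of the 245 below it. The median log2 fold change of members was -0.07, -0.06 and -0.07 in the 3 comparisons, and that of all genes tested was 0.00, 0.00 and 0.00. The comparisons share the input libraries, so their counts are not independent of each other. Single libraries mattered: mock against input gave 14 higher and 5 lower members without mock replicate 3, 20 and 9 without mock replicate 2, 23 and 9 without input replicate 2 and 19 and 9 without input replicate 3. For dsRNA the lowest counts, 29 and 18, came without dsRNA replicate 3, and for silvestrol 13 were lower without silvestrol replicate 2 and 13 without silvestrol replicate 3.

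**Figure D1:**
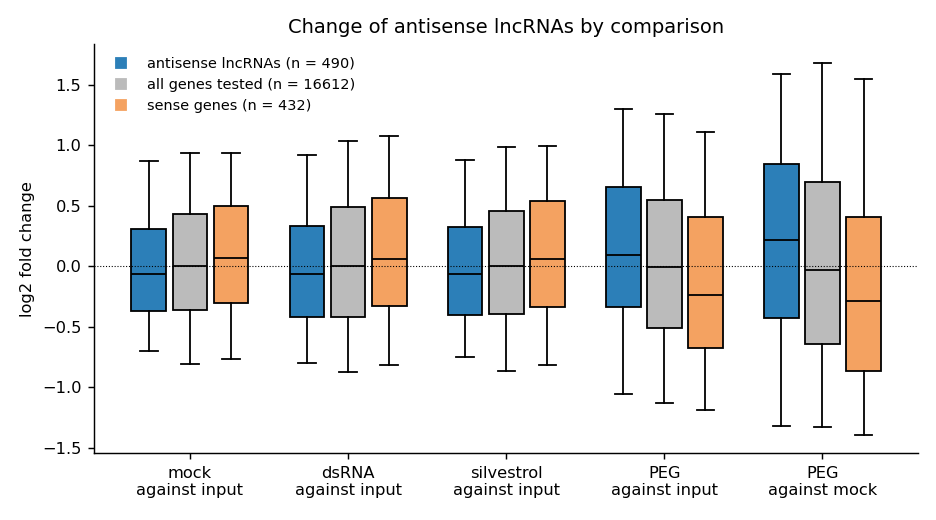
Log2 fold changes (vertical axis) of the 490 antisense lncRNAs, all 16612 genes tested and the 432 sense genes in each comparison (horizontal axis); boxes span the quartiles with the median as a line, and whiskers the 5th to 95th percentile. The member median was -0.07 in mock against input and 0.22 in PEG against mock, where that of the sense genes was -0.29.

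With the replicate number as a block, more members were called, as were more of all genes. Mock against input then gave 100 higher and 100 lower members (background 32.5 and 30.1%), dsRNA against input 95 and 101 (background 31 and 29.1%), and silvestrol against input 93 and 96 (background 30.8 and 28.7%). With a GC offset in place of the block, 21 members were higher and 37 lower in mock (background 10.7 and 16.8%), 29 and 58 with dsRNA (background 13.3 and 20.4%), and 30 and 53 with silvestrol (background 11.6 and 18.7%), so that calls of all genes also turned towards lower. Scaled to library size alone, the split was 49 higher and 16 lower in mock (background 19.6 and 13.9%) and 50 and 30 with silvestrol (background 21.2 and 16.2%).

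By fitted fold change, the first member in each of the 3 comparisons was TCERG1L-AS1 (ENSG00000230098, chr10:131095218-131095777, plus strand), an RNA of 472 nt that lies in the span of TCERG1L without touching its exons. It was at 1.03, 1.55 and 1.72 CPM in input, 3.02, 4.67 and 4.62 in mock, 2.34, 4.16 and 4.44 with dsRNA, 2.53, 4.31 and 3.90 with silvestrol, and 4.96, 5.19 and 4.95 with PEG. No pellet library overlapped input. The log2 fold change was 1.5 ± 0.27 (SE) in mock, 1.34 ± 0.31 with dsRNA, 1.30 ± 0.28 with silvestrol and 1.79 ± 0.22 with PEG (edgeR adjusted p = 0.00673, 0.0102, 0.00926 and 0.000431), and every fit that left out 1 library kept the calls. TCERG1L itself, at 2.71 to 3.29 CPM on average per group, passed no test.

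Other enriched members were MELTF-AS1, SEMA3F-AS1 and VPS9D1-AS1. MELTF-AS1 was at 0.494, 1.41 and 1.19 CPM in input and at 1.68, 2.66 and 2.73 in mock, a log2 fold change of 1.14 ± 0.38 (adjusted p = 0.0468, edgeR) that was called in 1 of the 6 fits leaving out a library and not with the GC offset (adjusted p = 0.148). Its log2 fold change was 1.32 ± 0.36 with dsRNA and 1.29 ± 0.35 with silvestrol, within 1 SE of TCERG1L-AS1, and was called in 4 and 3 of the 6 fits. SEMA3F-AS1 rose from 1.30, 2.01 and 1.16 CPM to 3.64, 3.20 and 2.96 in mock, by 1.12 ± 0.25 on the log2 scale, and was called in 6 of 6 such fits. VPS9D1-AS1 rose by 1.24 ± 0.28 with dsRNA and by 1.28 ± 0.26 with silvestrol, called in 6 of 6 fits each, although not with the GC offset (adjusted p = 0.0926 and 0.0513). Sense genes of all 3 were also higher: MELTF by 1.06, SEMA3F by 0.98 (both mock) and VPS9D1 by 0.98 on the log2 scale with dsRNA.

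Depleted members changed by smaller folds. ST3GAL6-AS1 (-0.97 ± 0.30), RTCA-AS1 (-0.95 ± 0.30) and RFX5-AS1 (-0.77 ± 0.22) led in mock, and their calls held in 1, 2 and 2 of the 6 fits leaving out a library. RTCA-AS1 starts 87 nt from RTCA, the gene of an RNA cyclase, on the other strand, and RTCA was at -0.61 in mock without passing the test. SBF2-AS1 (-0.98 ± 0.25), SLC38A4-AS1 (-0.91 ± 0.21) and KRT10-AS1 (-0.90 ± 0.25), annotated as protein coding, led with dsRNA. SLC38A4-AS1 (-1.08 ± 0.23), RFX5-AS1 (-0.99 ± 0.30) and ZSCAN16-AS1 (-0.95 ± 0.19) led with silvestrol. ZSCAN16-AS1 was at 14.4, 11.1 and 10.6 CPM in input, 6.85, 6.61 and 7.50 in mock, 6.46, 7.06 and 6.47 with dsRNA and 4.96, 6.17 and 6.96 with silvestrol. It shares its direction with ZSCAN16, a zinc finger gene, which was lower by 0.85 on the log2 scale in mock.

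**Figure D2:**
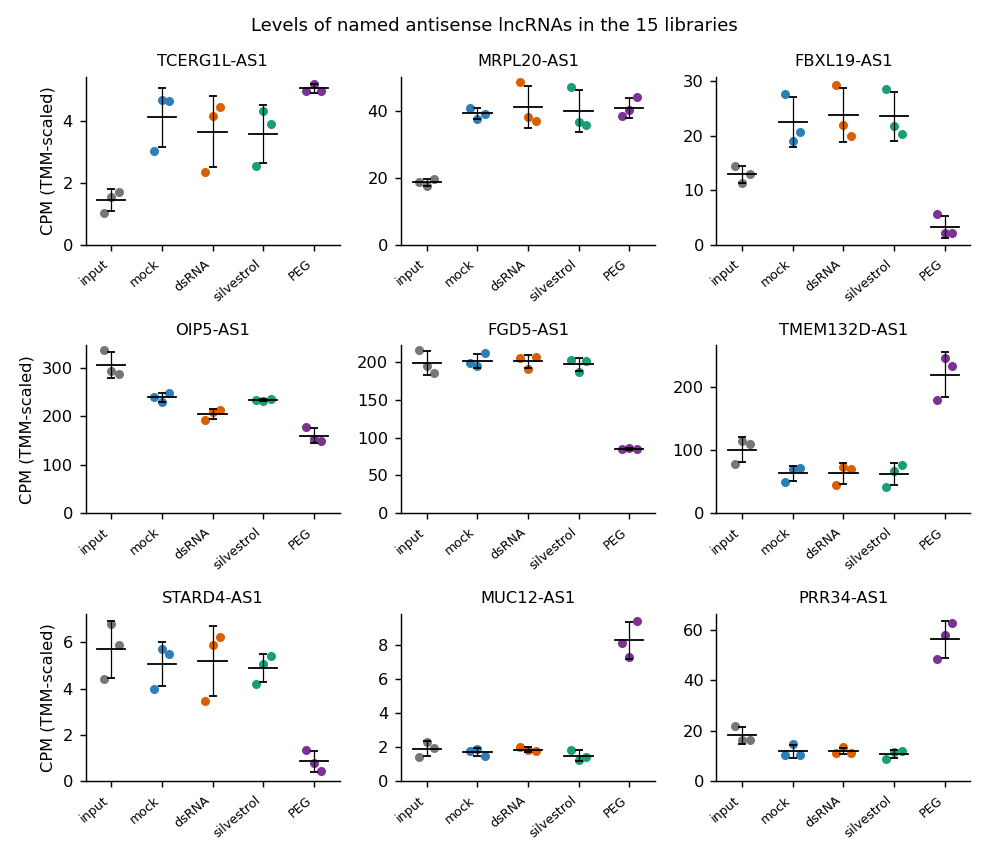
Levels in CPM (vertical axes, from 0) of 9 antisense lncRNAs in each of the 15 libraries, by group; points are libraries, lines and bars the mean ± SD (n = 3). TCERG1L-AS1 and MRPL20-AS1 were higher in every pellet library than in input, whereas FBXL19-AS1, FGD5-AS1 and STARD4-AS1 were lowest with PEG.

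A list of 10 members known from the literature was also followed. FGD5-AS1 was at 216, 195 and 186 CPM in input, 199, 195 and 213 in mock, 206, 192 and 207 with dsRNA and 203, 188 and 203 with silvestrol, groups that overlap. PSMA3-AS1, MCM3AP-AS1, TMPO-AS1, ZEB1-AS1 and HOXA-AS2 also passed no test in these 3 comparisons. LOXL1-AS1 was lower in each, with log2 fold changes of -0.50 ± 0.14, -0.60 ± 0.16 and -0.53 ± 0.16 that were called in 1, 4 and 1 of the 6 fits leaving out a library and not with the GC offset. MAPKAPK5-AS1 was lower with dsRNA (-0.52 ± 0.16, called in 1 of 6 such fits). GABPB1-AS1, at 17179 nt of summed exon length, was higher in mock (0.52 ± 0.13) and with silvestrol (0.53 ± 0.14), each called in 3 of 6 such fits. OIP5-AS1 was at 336, 293 and 287 CPM in input, 239, 230 and 247 in mock, 192, 209 and 212 with dsRNA, 234, 231 and 235 with silvestrol and 177, 152 and 148 with PEG. Every pellet library was thus below every input library, and the fall passed the test with dsRNA (-0.54 ± 0.12, edgeR adjusted p = 0.0106), silvestrol (-0.36 ± 0.12, adjusted p = 0.0469, called in 1 of 6 fits leaving out a library and not with the GC offset) and PEG (-0.90 ± 0.14, adjusted p = 0.00105). In mock, OIP5-AS1 was called with the block and not without it.

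Antisense lncRNAs and their sense genes were then compared within the 438 pairs. In mock against input, both genes were called in the same direction in 23 pairs and in opposite directions in 9, the antisense lncRNA alone in 44, the sense gene alone in 137 and neither in 225. With dsRNA the counts were 38, 13, 45, 149 and 193, and with silvestrol 26, 11, 44, 153 and 204. As a description across pairs, which share libraries and, in part, reads, Spearman's rho between the log2 fold changes of antisense and sense gene was 0.22, 0.26 and 0.23. For 29 pairs apart with starts within 2 kb it was 0.53, 0.61 and 0.57, and for 78 pairs with overlapping spans and separate exons 0.12, 0.14 and 0.10.

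The 9 pairs called in opposite directions in mock were named after their values were seen. In 6 of them the antisense lncRNA was higher and the sense gene lower, and the clearest was MRPL20-AS1. It was at 18.9, 17.7 and 19.7 CPM in input and 41.1, 37.9 and 39.3 in mock, while MRPL20, which encodes a mitochondrial ribosomal protein, was at 74.3, 59.3 and 61.5 in input and 42.9, 35.7 and 33.0 in mock. MRPL20-AS1 rose by 1.10 ± 0.10 and MRPL20 fell by 0.77 on the log2 scale (SE 0.14; edgeR adjusted p = 0.00358 and 0.00824), and both calls held in every fit leaving out a library. H1-10-AS1 (1.00 ± 0.28), TMEM147-AS1 (0.83 ± 0.22), DUT-AS1 (0.70 ± 0.20), TMEM9B-AS1 (0.66) and BTG3-AS1 (0.63) were higher against sense genes that were lower, and these calls of the antisense lncRNA held in 3, 3, 1, 3 and 3 of the 6 fits leaving out a library. H1-10 encodes a linker histone and DUT a dUTPase, and they were lower by 0.55 and 0.93 on the log2 scale. In the other 3 pairs the antisense lncRNA was lower: NR2F1-AS1 (-0.71 ± 0.13) against NR2F1, a nuclear receptor gene (0.59), RASSF8-AS1 (-0.43) against RASSF8 (0.35), and CLN8-AS1 (-0.51) against CLN8 (0.64). Of these 9 members, MRPL20-AS1, NR2F1-AS1, DUT-AS1 and RASSF8-AS1 were also called with the GC offset.

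With PEG the calls were more numerous and tilted upwards. In PEG against input, 120 members were higher and 70 lower (24.5 and 14.3%), where the background was 25.5 and 25.9%. In PEG against mock, 165 were higher and 88 lower (33.7 and 18.0%), with a background of 31.3 and 32.2%. The share of members called higher was thus near that of all genes, and the share called lower was below it, a difference that was not tested. Against input, 76 were higher and 42 lower without PEG replicate 2, and 76 and 41 without PEG replicate 3. The median log2 fold change of members was 0.09 against input and 0.22 against mock, while that of all genes was -0.01 and -0.03 and that of sense genes -0.24 and -0.29. These directions depend on the scaling. With library size alone the median of all genes was -0.35 against input and -0.49 against mock, and that of members -0.25 and -0.23. A change of scaling shifts all genes of a comparison by nearly the same amount. It therefore cannot test where members lie relative to all genes. Under library size alone, 61 members were higher and 129 lower against input (background 14.1 and 41.5%), and 81 and 173 against mock (background 18.8 and 49.8%). The filter also bears on the split: of the 282 genes of the naming rule that passed it in some but not all conditions, 136 failed with PEG only. In a fit that kept them, 11 of the 282 were higher and 39 lower in PEG against input, and 19 and 54 against mock. Their median log2 fold change was -0.33 against input and -0.41 against mock, opposite in sign to that of the members. The share of all genes called in that fit is not given here.

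The largest rises with PEG belonged to short RNAs. MUC12-AS1 (ENSG00000227053, chr7:101014320-101017608, minus strand, 407 nt) was at 1.44, 2.32 and 1.96 CPM in input, 1.75, 1.91 and 1.46 in mock and 8.11, 7.27 and 9.41 with PEG, 2.10 ± 0.21 on the log2 scale above input and 2.30 ± 0.20 above mock (edgeR adjusted p = 0.000261 and 1.18e-05). UPK1A-AS1 (795 nt) was 1.90 ± 0.25 above input, and HMGA2-AS1, with 6033 nt the exception in length, 1.98 ± 0.32. Of their sense genes, MUC12 (1.41) and UPK1A (0.87) were also higher than input and HMGA2 (-0.68) was lower. Against mock, PRR34-AS1 led. It was at 22.1, 16.2 and 16.2 CPM in input, 10.3, 14.9 and 10.4 in mock and 48.4, 58.2 and 62.8 with PEG, a log2 fold change of 2.32 ± 0.17 (edgeR adjusted p = 7.12e-06). ILRUN-AS1 (771 nt; 2.31 ± 0.18) and IDH1-AS1 (655 nt; 2.31 ± 0.35) followed, while ILRUN was at 0.04 and IDH1, which encodes isocitrate dehydrogenase, at 0.76 on the same scale. TMEM132D-AS1, the second most abundant member per length, was at 77.2, 113 and 110 CPM in input, 48.4, 69.0 and 70.5 in mock and 178, 245 and 233 with PEG, 1.88 ± 0.17 above mock. Calls of all these members in PEG against mock held in every fit leaving out a library.

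Among the falls with PEG, FBXL19-AS1 had the largest difference from mock. FBXL19-AS1 (ENSG00000260852, chr16:30919319-30923269, minus strand) was at 14.5, 11.4 and 13.0 CPM in input and 27.6, 19.0 and 20.7 in mock, and at 5.64, 2.13 and 2.18 with PEG. It was thus higher than input in mock (0.83 ± 0.18, edgeR adjusted p = 0.0116) and lower than input with PEG (-1.94 ± 0.35, adjusted p = 0.00186), and PEG against mock gave -2.72 ± 0.34 (adjusted p = 8.62e-05). FBXL19, a ubiquitin ligase subunit gene, had log2 fold changes of 1.01 in mock and -0.61 with PEG. STARD4-AS1 fell from 4.40, 6.81 and 5.89 CPM in input to 1.35, 0.791 and 0.446 with PEG (-2.64 ± 0.35). BCAN-AS2 fell from 10.8, 13.5 and 13.1 CPM to 4.58, 1.33 and 1.63 (-2.30 ± 0.38). In FBXL19-AS1, STARD4-AS1 and BCAN-AS2, PEG replicate 1 was the highest of the 3, and without it the log2 fold change from input was -3.02 for BCAN-AS2 and -2.55 for FBXL19-AS1. FGD5-AS1 was steady in the other pellets and fell with PEG, to 84.5, 86.5 and 84.5 CPM (-1.18 ± 0.12, edgeR adjusted p = 0.000282). Of the members known from the literature, OIP5-AS1, FGD5-AS1, PSMA3-AS1 (-0.52 ± 0.11), MCM3AP-AS1 (-0.75 ± 0.20) and LOXL1-AS1 (-0.91 ± 0.13) were lower than input with PEG and MAPKAPK5-AS1 was higher (1.04 ± 0.16).

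Exon length ran with these differences. The 245 members shorter than the median included 81 higher and 29 lower in PEG against input (33.1 and 11.8%). In PEG against mock they included 113 higher and 32 lower (46.1 and 13.1%). The 245 longer ones had 39 and 41 (15.9 and 16.7%), and 52 and 56 (21.2 and 22.9%). Of all genes of any length, 25.5 and 25.9% were called in PEG against input and 31.3 and 32.2% in PEG against mock. Calls of all genes were not split by length. Across the 490 members, Spearman's rho of length with the log2 fold change was -0.34 in PEG against input and -0.38 in PEG against mock, against 0.22, 0.18 and 0.22 in the mock, dsRNA and silvestrol pellets. Across all genes tested it was -0.48 for both PEG comparisons and 0.18 for the others, so that the members followed the trend of all genes. GC content had a rho of 0.31, 0.39 and 0.32 in the mock, dsRNA and silvestrol pellets and 0.17 in PEG against input. Genes are not independent replicates, and these values share their libraries.

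**Figure D3:**
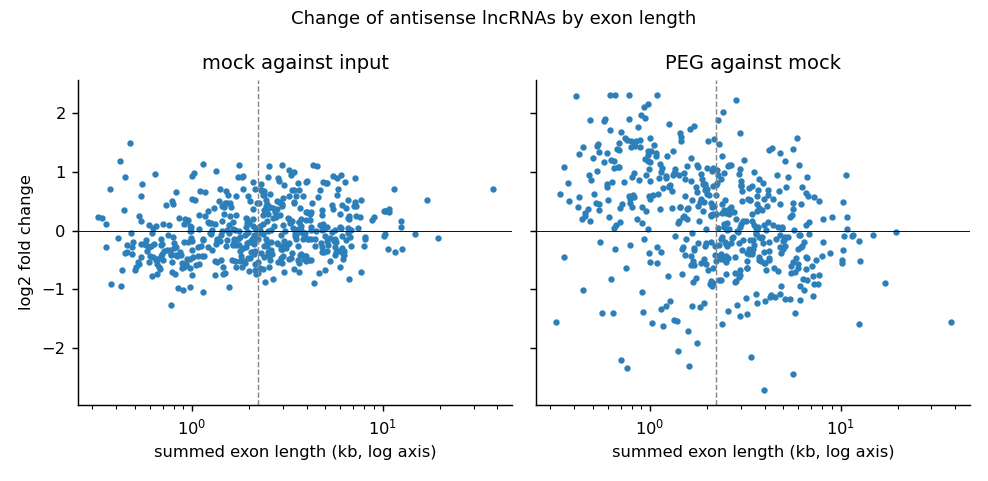
Log2 fold change (vertical axis) of the 490 antisense lncRNAs against their summed exon length in kb (log axis) in mock against input and PEG against mock; each point is a member and the dashed line marks the median length of 2.22 kb. In PEG against mock, 113 of the 245 shorter members were called higher and 32 lower (46.1 and 13.1%, against 31.3 and 32.2% of all genes of any length).

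In the sense pairs, PEG against mock gave 73 pairs called in the same direction and 80 in opposite directions, and in 61 of the 80 the antisense lncRNA was higher and the sense gene lower. For PEG against input these counts were 57, 57 and 44. In PEG against mock, 33.7% of members were higher and 18% lower, against 24.8 and 44.2% of sense genes. In PEG against input the shares were 24.5 and 14.3%, against 21.1 and 36.6%. The pair counts were not compared with those that these shares alone would give. Spearman's rho across the 438 pairs was 0.05 in PEG against input and 0.06 in PEG against mock. FOXP4-AS1, chosen after its values were seen, was 1 of the 61 in PEG against mock. It was at 4.14, 4.94 and 3.73 CPM in mock and 14.5, 19.8 and 18.6 with PEG (2.10 ± 0.18). FOXP4, which encodes a forkhead transcription factor, had a log2 fold change of -1.84. PSMA3-AS1 went the other way, -0.50 ± 0.12 against 1.95 for PSMA3, a proteasome subunit gene. The median difference between antisense and sense log2 fold change was 0.41 in PEG against mock and 0.65 in the 114 pairs whose exons do not overlap.

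**Figure D4:**
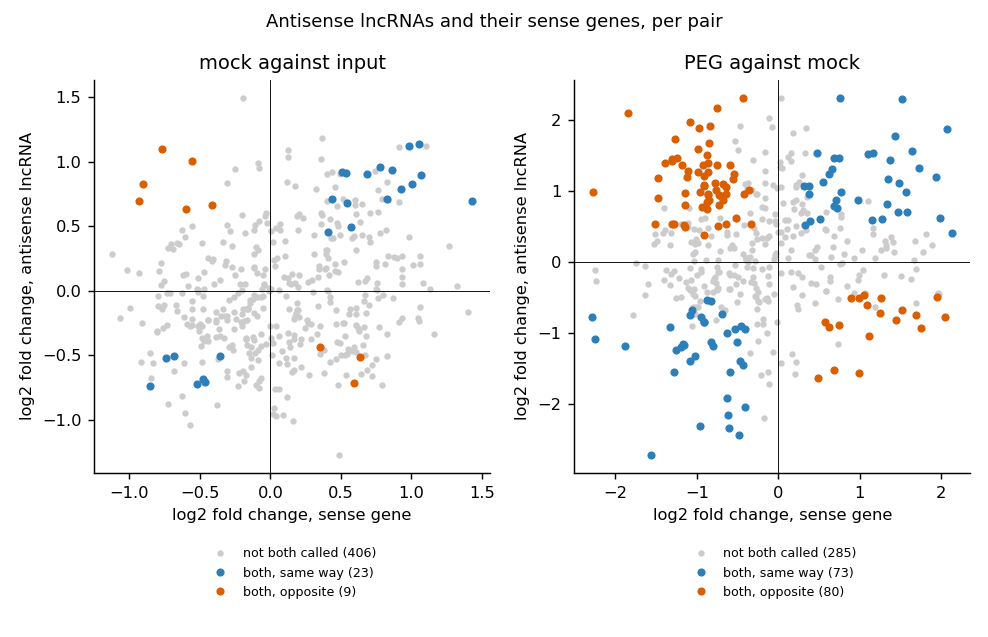
Log2 fold change of each antisense lncRNA (vertical axis) against that of its sense gene (horizontal axis) for 438 pairs in mock against input and PEG against mock; colours mark pairs in which both genes were called. Of these, 23 went the same way and 9 opposite in mock against input, and 73 and 80 in PEG against mock. These counts were not compared with those that the shares called in each set would give.

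Overlap with sense exons was longest in 4 members, at 2700 nt for AP1G2-AS1, 1975 nt for SH3BP5-AS1, 1971 nt for HSD17B1-AS1 and 1686 nt for ZFHX3-AS1. HSD17B1-AS1 was higher in mock (0.79 ± 0.17, not with the GC offset), where HSD17B1, an estradiol-forming dehydrogenase gene, was at 0.32, and in PEG against mock it was lower (-0.84 ± 0.14) while HSD17B1 was higher (0.58). AP1G2-AS1 (-1.42 ± 0.29) and SH3BP5-AS1 (-1.40 ± 0.27) were lower in PEG against mock, with AP1G2 at 0.04 and SH3BP5 at -1.09. ZFHX3-AS1 passed no test.

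HOX antisense lncRNAs lie in the homeobox clusters, whose genes set position along the body axis. All 8 that passed the filter (HOXA-AS2, HOXA-AS3, HOXB-AS1, HOXB-AS3, HOXC-AS1, HOXC-AS2, HOXC-AS3 and HOXD-AS2) passed no test in mock, dsRNA or silvestrol against input. In PEG against input 4 were higher and 2 lower (background 25.5 and 25.9%), and in PEG against mock 3 were higher and 1 lower (background 31.3 and 32.2%). HOXD-AS2 was at 6.33, 6.15 and 6.42 CPM in input, 5.44, 6.33 and 6.49 in mock and 15.2, 20.8 and 19.1 with PEG (1.58 ± 0.16 against input). HOXB-AS3 moved down, from 3.77, 3.85 and 3.40 CPM in input to 2.10, 1.68 and 1.24 (-1.07 ± 0.25).

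Other lncRNA classes are given for comparison. Of all genes tested, 17.6% were higher and 15.8% lower in mock against input, and 25.5 and 25.9% in PEG against input. Differences of the following lists from these shares were not tested. Among 315 LINC genes, 22 were higher and 38 lower in mock against input, with a median log2 fold change of -0.13, and 69 were higher and 42 lower in PEG against input, with a median of 0.11. Among 25 SNHG genes, whose introns encode small nucleolar RNAs, 2 were higher and 4 lower in mock and 17 and 2 with PEG (median 0.91). By position, the 92 members with overlapping spans and separate exons gave 3 higher and 7 lower in mock, the 30 with starts within 2 kb 2 and 7, and the 350 with overlapping exons 41 and 18. Among the 106 members with no exon base under the other strand, 5 were higher and 13 lower in mock (4.72 and 12.3%), and 29 were higher and 10 lower in PEG against input.

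The last question was whether dsRNA or silvestrol changed the antisense lncRNAs in pellets relative to mock. Without the block, edgeR called no member in either comparison and no gene at all (background 0%). At an unadjusted p under 0.05 there were 7 members with dsRNA (1.43%, background 2.25%) and 2 with silvestrol (0.408%, background 0.211%). DESeq2 called 1 and 0 members, and the share of all genes it called is not given here. With the replicate number as a block, 5 members were lower with dsRNA and 0 higher (1.02 and 0%, background 2.65 and 0.15%), a share below that of all genes. Silvestrol against mock stayed at 0 called members. The 5 were PRR11-AS1, KTN1-AS1, CNPY2-AS1, SBF2-AS1 and OIP5-AS1, named after their values were seen.

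PRR11-AS1 was at 49.0, 39.2 and 47.0 CPM in mock, 31.5, 24.1 and 27.0 with dsRNA, 50.2, 43.0 and 46.9 with silvestrol and 38.2, 40.4 and 39.0 in input. All dsRNA libraries were below all mock, silvestrol and input libraries. The log2 fold change of dsRNA against mock was -0.71 ± 0.07 with the block (edgeR adjusted p = 7.04e-11) and -0.71 ± 0.13 without (adjusted p = 0.562), and DESeq2 gave an adjusted p of 0.00351. Its sense gene PRR11, a cell cycle gene, behaved alike: 517, 413 and 466 CPM in mock and 347, 276 and 292 with dsRNA, a log2 fold change of -0.61 ± 0.06 with the block (edgeR adjusted p = 3.2e-10). PRR11-AS1 (ENSG00000265415, minus strand) has 2 exons in GENCODE release 29 on GRCh38. The exon of 97 nt lies wholly under PRR11 exons. The exon of 224 nt touches none but lies 108 nt beyond the end of the nearest PRR11 exon, and PRR11 is transcribed towards it. Reads of a PRR11 transcript that runs on into the exon of 224 nt and reads of PRR11-AS1 cannot be told apart in these counts.

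KTN1-AS1 parted from its sense gene. It was at 6.18, 8.69 and 6.63 CPM in mock and 4.34, 4.49 and 4.27 with dsRNA (-0.70 ± 0.11 with the block, edgeR adjusted p = 1.92e-05; without it, adjusted p = 0.801), whereas KTN1, which encodes the kinesin-binding membrane protein kinectin, was at 703, 685 and 701 in mock and 765, 699 and 755 with dsRNA. Against input, KTN1-AS1 was lower with dsRNA (-0.67 ± 0.14) and KTN1 higher (1.42 ± 0.15), both called in 6 of 6 fits leaving out a library. CNPY2-AS1 was at 2.49, 2.38 and 2.27 CPM in mock and 1.40, 1.63 and 1.39 with dsRNA (-0.67 ± 0.18 with the block). SBF2-AS1 was at 4.41, 3.7 and 4.37 CPM in mock and 3.15, 2.93 and 2.91 with dsRNA (-0.46 ± 0.13, edgeR adjusted p = 0.0395 with the block, and 0.0740 with the GC offset added to it). OIP5-AS1 differed by -0.23 ± 0.06 (adjusted p = 0.0291). In each of the 5, every dsRNA library was below every mock library. As they were chosen by a fit of these same libraries, this adds no support. Without the block none of these 5 members was called by edgeR.

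**Figure D5:**
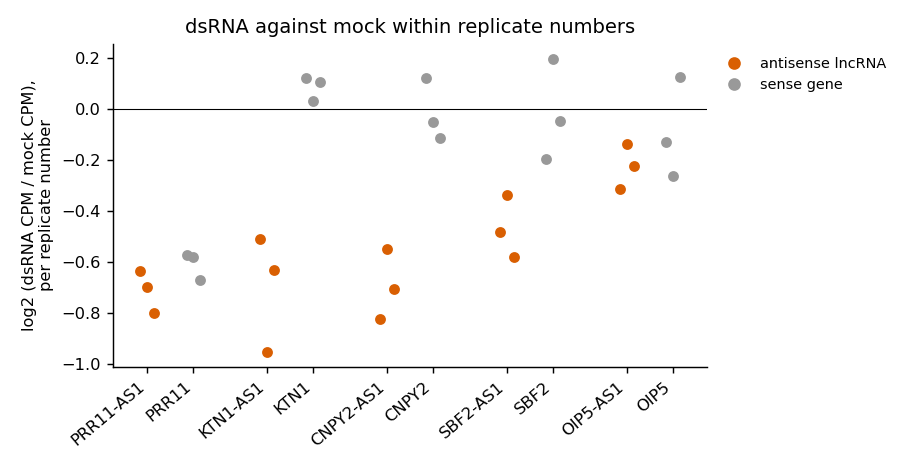
Log2 ratio of dsRNA to mock CPM (vertical axis) for replicates with the same number, 3 points per gene, in 5 antisense lncRNAs and their sense genes (horizontal axis). The ratio was -0.64, -0.70 and -0.80 for PRR11-AS1 and -0.57, -0.58 and -0.67 for PRR11, and 0.12, 0.03 and 0.11 for KTN1.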

How the data were processed

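RNA was measured in 15 libraries of U2OS extract and pellets, 3 per group. The authors deposited raw counts of reads per gene for each library, without normalisation. Per the labels, the submitters' processing notes name Trimmomatic 0.36, STAR 2.5.2b, featureCounts (Subread 1.5.2) and GRCh38, whereas the strand setting is not given in the sources used here. Of 57500 gene identifiers, 56898 were found in GENCODE release 29, 54784 with the same start and end, and sequences come from its transcripts. Symbols were found for 56410 identifiers.

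Genes were kept if every condition had 2 or more libraries with a count of 10 or above. Counts were tested with edgeR 4.0.16 in R 4.3.3 (TMM normalisation, quasi-likelihood F test, prior count 2) on the 6 libraries of each of 7 comparisons, with Benjamini-Hochberg adjustment over all 16612 genes and a threshold of 0.05. The methods of the study name DESeq2, and DESeq2 1.42.0 was an alternative. The fit without the block was also run on counts simulated after mock and input without a replicate effect, and the outcome is not given here. Errors of fold changes are SE, and those of levels SD. With 3 libraries against 3, the F test weighs a group difference against the spread between these libraries, estimated with information from all genes. In the blocked fits this is the spread left after replicate effects. Python 3.11.15 and matplotlib 3.10.9 were used for figures.

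Replicate numbers in the titles gave the pairing. Deviations from group means correlated between same-numbered libraries at 0.144 to 0.896 and between others at -0.808 to 0.653. As every same-numbered pair was above 0.1, libraries were treated as paired by number in the blocked fits. This did not tell numbers 2 and 3 apart in every case. Input replicate 2 correlated at 0.653 with mock replicate 3 and at 0.637 with mock replicate 2. The blocked calls rest on the numbers in the titles.

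Named members were, in the 4 comparisons with input and in PEG against mock, the 3 largest rises and 3 largest falls among called members whose groups did not overlap and whose average log2 CPM was 0 or more, the 6 highest levels per length, 10 members known from the literature, and the 4 longest overlaps with a sense gene, besides the HOX list and those said to be chosen after their values were seen. Some items that this rule names are not reported here. The members and lists were chosen with earlier results of these data known. Members just inside the count minimum were ADD3-AS1, CCDC28A-AS1 and DNAAF3-AS1, and just outside it ACOXL-AS1, CACNA1G-AS1 and DAAM2-AS1, whose second highest count in the lowest group was 10 and 9. Of the 1306 genes of the naming rule left out, 192 had no count in any library and 1024 passed in no condition. Alternatives were DESeq2, edgeR with the size factors of DESeq2, scaling by library size alone, 2 other filters, the replicate block, a GC offset (smooth trend, span 0.3), both together, a log2 fold change over 1, and each library left out in turn. Some counts rest on few reads, and a member not called may have changed by less than could be detected at this depth.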

Additional observations from a re-analysis of the deposited data

Results flagged for a closer look

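Members whose change from input differed between pellets were picked out by the direct test of 1 pellet against another. In PEG against mock (edgeR), 165 members were higher and 88 lower (33.7 and 18%, background 31.3 and 32.2%). Their change from input thus differed between the crowded and the mock pellet, with the share called higher near that of all genes. FBXL19-AS1 moved in opposite directions from input in the 2 pellets, 0.83 in mock and -1.94 with PEG on the log2 scale. FOXP4-AS1 did so the other way, -0.59 in mock and 1.46 with PEG. In dsRNA against mock, 5 members were lower with the replicate block (1.02%, background 2.65%) and 0 without it (background 0%).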

How the results depend on the processing

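Counts of called members moved with several settings. The share of all genes called is not given here for the block with the GC offset or the log2 fold change of 1. Nor is it given for the addition of naming-rule genes or the fits leaving out a library. Those counts therefore cannot be read as particular to antisense lncRNAs. With the replicate block they were 100 higher and 100 lower for mock against input, 95 and 101 for dsRNA, 93 and 96 for silvestrol, and 5 lower for dsRNA against mock, and with the block and the GC offset 81 and 129 for mock, 140 lower for dsRNA, 122 lower for silvestrol and 5 lower for dsRNA against mock. The GC offset alone left 21, 29 and 30 higher in mock, dsRNA and silvestrol against input. Library size only gave 16 lower for mock, 61 higher and 129 lower for PEG against input and 81 and 173 for PEG against mock. Calls that also passed a log2 fold change of 1 in size were 9 and 2 for mock, 16 and 3 for dsRNA, 15 and 2 for silvestrol, 56 and 29 for PEG against input and 94 and 46 for PEG against mock. DESeq2 called 1 member lower in dsRNA against mock, where its share of all genes is not given here. Chosen after seeing the data, the addition of naming-rule genes that passed the filter in at least 1 condition gave 133 lower in PEG against mock, and among members with no exon base under the other strand 4.72% were higher and 12.3% lower in mock, 6.6% higher with dsRNA, 13.2% lower with silvestrol, and 9.43% lower in PEG against input and 9.43% lower in PEG against mock. Over pairs whose exons do not overlap, Spearman's rho was 0.24 for mock, 0.30 for dsRNA and 0.26 for silvestrol, and it reversed to -0.0086 for PEG against input and -0.043 for PEG against mock.

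Leaving out each library in turn gave 14 to 49 higher and 5 to 43 lower members for mock against input, 29 to 54 and 18 to 56 for dsRNA, 28 to 44 and 13 to 55 for silvestrol, 76 to 140 and 41 to 83 for PEG against input, 126 to 165 and 61 to 94 for PEG against mock, and 0 to 0 for dsRNA and silvestrol against mock. The lowest counts for mock came without mock replicate 3 (14 and 5). Of 182 values of named members, the sign reversed for MIF-AS1 in dsRNA against input with the GC offset (-0.17) and with the block and the GC offset (-0.17), and for ARRDC1-AS1 in PEG against mock with library size only (-0.0087). Calls were lost for 37 of them with the GC offset, 22 with library size only, 20 with no filter, 14 with the block and the GC offset and 1 with the replicate block, which added 5. Over all fits leaving out a library, 244 such values lost their call and 848 did not change sides. The causes of these shifts were not tested. The smallest library was PEG replicate 1, followed by input replicate 1. In mock against input, 35 were higher and 22 lower of the 245 members at or above the median count, and 11 and 10 of the 245 below it.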
